A study of Mus musculus with 6 samples.

Results

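The genes described here encode enzymes that make or remove reactive oxygen species in the hippocampus of Tg2576 mice, which carry a human amyloid precursor protein transgene, with the Swedish mutation, under a prion protein promoter. The 10 genes were chosen by name: the superoxide dismutases Sod1 and Sod2, the peroxide-removing enzymes Cat, Gpx1, Gpx4, Prdx2 and Prdx5, the inducible enzymes Nqo1 and Hmox1, and the oxidase subunit Cyba. All probe sets whose single annotated symbol was one of these names were taken, which gave 19 of the 45101 probe sets of the chip for 9 of the 10 genes. Prdx5 was not analysed here, because no probe set carried its symbol. Of the 19 probe sets, 17 passed the filter on low signal, a mean of 100 or more in 1 or more groups, and were tested among 23262. Both others, the Hmox1 probe set and the Sod1 probe set 1447761_x_at, are given as values. Untreated males of 18 months (Tg-18mo), males of 18 months that had received the ACE inhibitor captopril at 20 mg/kg/day in the drinking water for the last 6 months (Tg-18mo-ACEI), and untreated males of 12 months (Tg-12mo) were compared, all transgenic and on a C57BL/6 background. Each group had 2 chips, and each chip carried hippocampal RNA pooled from 4 mice, so every p-value measures the spread between pools and not between mice. No group without the transgene was compared.

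Superoxide, which leaks from mitochondria or is made by NADPH oxidases, is turned into hydrogen peroxide by superoxide dismutases. Catalase, glutathione peroxidases and peroxiredoxins then remove the peroxide, and Nqo1 and Hmox1 belong to the set of genes that the transcription factor Nrf2 switches on under oxidative stress. Angiotensin II, whose formation captopril blocks, is a known activator of NADPH oxidases through its AT1 receptor, which is why the oxidant-handling genes of captopril-treated mice are of interest.

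Promoter sequence is shown for 3 genes: Cat, which was higher with captopril, Cyba, which was lower, and Sod1, which differed between the ages. The sequences are the 250 bases before the RefSeq transcription start on mouse build GRCm38.p6, 5′ to 3′ on the strand of the gene, at chr2:103485154-103485403 (minus strand) for Cat, chr8:122432941-122433190 (minus strand) for Cyba and chr16:90220512-90220761 (plus strand) for Sod1. Capitals mark matches, on either strand, to the core of the antioxidant response element TGACNNNGC (the Nrf2 motif), the GC box GGGCGG, the CCAAT box CCAAT and the TATA box TATAAA.
Cat: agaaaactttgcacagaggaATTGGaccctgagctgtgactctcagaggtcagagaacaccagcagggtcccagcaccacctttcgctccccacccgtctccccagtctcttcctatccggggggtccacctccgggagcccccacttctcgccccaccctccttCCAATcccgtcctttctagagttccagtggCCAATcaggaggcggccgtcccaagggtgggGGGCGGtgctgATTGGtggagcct
Cyba: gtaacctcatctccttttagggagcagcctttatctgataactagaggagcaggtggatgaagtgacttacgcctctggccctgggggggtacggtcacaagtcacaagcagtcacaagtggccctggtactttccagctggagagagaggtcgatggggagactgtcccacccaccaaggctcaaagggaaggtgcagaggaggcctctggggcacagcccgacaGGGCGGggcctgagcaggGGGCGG
Sod1: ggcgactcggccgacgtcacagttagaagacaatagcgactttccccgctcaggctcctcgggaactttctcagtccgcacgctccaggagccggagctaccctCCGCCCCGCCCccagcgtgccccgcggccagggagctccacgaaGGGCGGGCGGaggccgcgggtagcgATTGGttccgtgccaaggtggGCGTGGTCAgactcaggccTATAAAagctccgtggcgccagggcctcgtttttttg
The Cat window held 4 CCAAT boxes and 1 GC box, the Cyba window 2 GC boxes, and the Sod1 window 1 antioxidant response element core, 4 GC boxes, of which neighbours overlap, 1 CCAAT box and 1 TATA box. Windows were found for 9 of the 10 genes, Hmox1 being the other; Gpx4 had 4, some of which overlap, and the rest 1 each, so that there were 12. Of these, the Sod1 window alone held the antioxidant response element core, which 10.2% of 32851 mouse promoter windows hold. By gene, the GC box occurred in a window of 7 of the 9, the CCAAT box in 4 and the TATA box in 2. By window, the counts in the same order were 9, 6 and 2 of the 12. These boxes were held by 32.7%, 33.8% and 12.4% of all windows. A match describes the letters and does not show a bound factor.

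With captopril, catalase was higher and glutathione peroxidase 1 and Cyba were lower than in untreated mice of the same age. Each gene was counted by its brightest tested probe set, and a gene passed when the adjusted p of limma was under 0.05. By that count 1 of 8 genes rose (Cat), where 12.6% of all 12325 genes tested rose, and 2 of 8 fell (Gpx1 and Cyba), where 21.7% of all genes fell, so with all chips in the fit the shares were close to those of the whole chip. With 1 chip left out the number of genes called fell as low as 863 higher (without Tg-18mo-ACEI replicate 2) and 1375 lower (without Tg-18mo replicate 2), from 1547 and 2670, while 1 and 2 of the 8 were called each time. At 12 months 5 of the 8 were higher than at 18 months (Sod1, Sod2, Gpx1, Gpx4 and Prdx2), against 21.0% of all genes, and 1 was lower (Cyba), against 28.0%. Among genes with a mean signal over 4000, 58.4% were called higher at 12 months. After quantile normalization, described below, Prdx2 no longer passed at 12 months and Gpx4 became the third gene to fall with captopril. The median log2 difference of the 8 genes was -0.15 with captopril and 0.19 at 12 months, and over all genes it was -0.08 and -0.06.

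**Figure D1:**
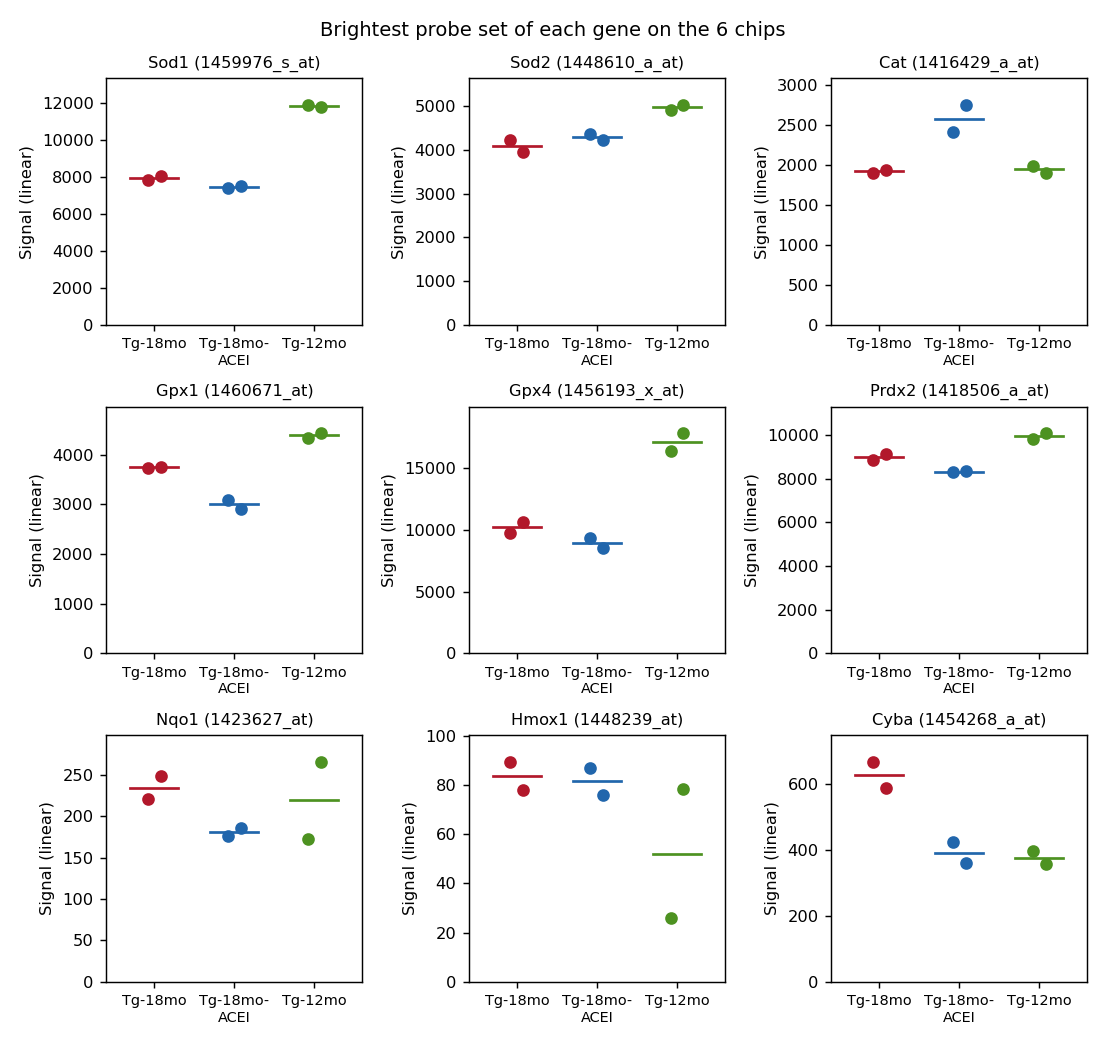
Signal (linear scale, starting at 0) of the brightest probe set of 9 genes on each of the 6 chips, points for chips and lines for the means of the 2 chips of a group. Cat was high on both captopril chips, Cyba was high on both untreated 18 month chips, and Sod1 and Gpx4 were high on both 12 month chips.

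Bright probe sets as a class differed between the ages. The highest signal on a chip was 21934 to 25102 at 18 months and 39494 and 40189.9 at 12 months, although every chip had the same trimmed mean of 600. Among the 1448 genes whose brightest probe set had a mean signal over 4000, 58.4% were called higher at 12 months and 14.4% lower. Sod1, Sod2, Gpx4 and Prdx2 lie in that class, and Gpx1 lies just under it at 3712. After quantile normalization, which gives all chips the same distribution of signals, the median difference of the 2291 probe sets in that class went from 0.24 to 0.00. The age differences of these genes are therefore given below on both scales. On all 6 chips the signals of the 10 hippocampal neuron markers were 139 or more, the lowest being Prox1. Sums over 10 choroid plexus markers were 27001 to 29440 in Tg-18mo, 20384 to 22272 in Tg-18mo-ACEI and 44527 to 44848 in Tg-12mo, and 9 of these markers were lower with captopril. The high sum at 12 months came from Ttr, at 36156 to 36598 there and 17548 to 20358 at 18 months, and at that age 1 marker was higher and 4 were lower than in Tg-18mo. Without Ttr the sums were 9453 to 9634, 1914 to 2014 and 8251 to 8371 in the same order of groups. Sums over 10 markers of meninges and fibroblasts were 10321 to 10354, 5507 to 5622 and 14691 to 14784. With captopril 3 of 10 astrocyte markers were higher and 3 lower, 1 of 9 oligodendrocyte markers higher and 4 lower, 3 of 10 neuron markers higher and 1 lower, and 2 of 8 endothelial markers higher and 1 lower. Over all genes 12.6% were higher and 21.7% lower with captopril, and 21.0% higher and 28.0% lower at 12 months. The ratio of 3′ to 5′ signal of beta-actin, a measure of RNA integrity, was 1.88 and 1.98 on the untreated 18 month chips, 1.38 and 1.45 on the captopril chips and 1.77 and 1.83 on the 12 month chips. The same ratio of Gapdh was nearly level, at 0.828 to 0.862 over the 6 chips. A control probe set for 18S ribosomal RNA read 10219 and 11144 in Tg-18mo and 1999.95 to 2214 on the other 4 chips, so that it was high in the same group as Cyba. The part of RNA quality, of these cells and of neighbouring tissues in the enzyme signals was not tested, and in bulk tissue fewer cells of a type and less RNA per cell cannot be told apart.

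Sod1, the copper and zinc superoxide dismutase of the cytosol, was higher at 12 months on all 4 of its tested probe sets, of which 1 turned after quantile normalization and 1 did not pass without the filter on low signal, whereas its captopril difference depended on the probe set. The brightest, 1459976_s_at, read 7833 and 8074 on the untreated 18 month chips, 7422 and 7486 on the captopril chips and 11904 and 11784 on the 12 month chips. Both 12 month chips stood well above the other 4, and the captopril chips lay just below the untreated ones. The 12 month level was 1.49-fold the 18 month level (log2 difference 0.57, SE 0.04, adjusted p = 2.8e-05), and it was still higher, by 0.30, after quantile normalization (adjusted p = 0.00040). With captopril the log2 difference was -0.09, with a 95% interval of -0.19 to 0.0040 and an adjusted p of 0.13.

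The second Sod1 probe set, 1451124_at, read 7660.15 and 7825 on the untreated 18 month chips, 6410.1 and 6001 on the captopril chips and 8627 and 8674 on the 12 month chips. It fell by 0.32 with captopril (SE 0.05, adjusted p = 0.0015), to 0.801 of the untreated level, and the groups did not overlap. Its age difference of 0.16 (adjusted p = 0.024) turned to -0.05 after quantile normalization. Probe set 1435304_at moved the other way with captopril, reading 457 and 537 on the untreated 18 month chips, 689 and 714 on the captopril chips and 625 and 628 on the 12 month chips. Both untreated 18 month chips were the lowest here, and captopril chips were 1.42-fold higher (log2 difference 0.50, SE 0.09, adjusted p = 0.0047). At 12 months 1435304_at was 0.34 higher (adjusted p = 0.018), and 0.45 higher after quantile normalization. That age difference ranged from 0.22 to 0.45 when single chips were left out. The dim probe set 1440222_at read 70.5 and 76.9 on the untreated 18 month chips, 114 and 140.2 on the captopril chips and 112 and 128 on the 12 month chips. Its rise of 0.78 (1.72-fold, adjusted p = 0.033) had an adjusted p of 0.073 without the filter on low signal and passed in 2 of 6 fits that left out a chip. At 12 months it was 0.70 higher (1.63-fold, adjusted p = 0.037), and this passed in 1 of the 6 such fits and had an adjusted p of 0.080 without the filter. Its mean of 73.7 in Tg-18mo was under the filter, so that it was tested only because it was high in the other groups. The signal of 1447761_x_at was 4.69 to 19.5 on the 6 chips and its groups overlapped. No direction of Sod1 with captopril can therefore be given for the gene as a whole: 1451124_at was lower, 1435304_at was higher, 1459976_s_at did not pass, and 1440222_at passed only with the filter. In Affymetrix names the endings _s_at and _x_at mark probes that can also match other transcripts, and _a_at marks probes common to several transcripts of a gene.

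Sod2, the manganese superoxide dismutase of mitochondria, had 4 tested probe sets that also disagreed. The brightest, 1448610_a_at, read 4231 and 3959 on the untreated 18 month chips, 4356 and 4213 on the captopril chips and 4918 and 5027 on the 12 month chips. The 12 month chips were the highest, and the 18 month groups overlapped. The 12 month level was 1.21-fold higher (log2 difference 0.28, SE 0.05, adjusted p = 0.0022, and 0.22 after quantile normalization), and with captopril the difference was 0.07 (95% interval -0.050 to 0.18, adjusted p = 0.35). Probe set 1417193_at showed the opposite order, reading 3771 and 3914 on the untreated 18 month chips, 3117 and 2879 on the captopril chips and 2635 and 2617 on the 12 month chips. It was highest in untreated mice of 18 months, fell by 0.36 with captopril (0.780-fold, SE 0.05, adjusted p = 0.0016) and was 0.684-fold that level at 12 months (log2 difference -0.55, adjusted p = 9.8e-05). Probe set 1454976_at was higher at 12 months (0.38, adjusted p = 0.0038) and had a captopril difference of -0.08 (adjusted p = 0.44). The dim probe set 1417194_at read 52.5 and 36.7 on the untreated 18 month chips, 57.5 and 90.1 on the captopril chips and 120.1 and 87.2 on the 12 month chips. It passed the filter through the 12 month group alone, and its 2.33-fold difference there had an adjusted p of 0.024 and, without the filter on low signal, of 0.054.

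**Figure D2:**
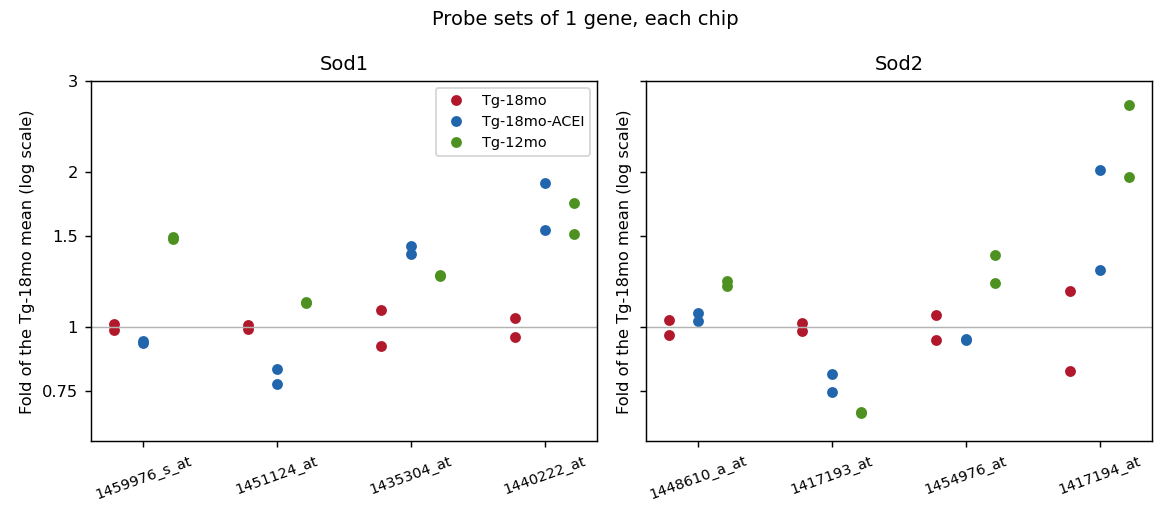
Signal of each tested probe set of Sod1 and Sod2 on each chip as a fold of the Tg-18mo mean of that probe set (log scale), with 1 column of points per group. With captopril Sod1 1451124_at lies at 0.775 and 0.828 and Sod1 1435304_at at 1.39 and 1.44, and at 12 months Sod2 1417193_at lies below 1 while the other Sod2 probe sets lie above it.

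Cat, the catalase of peroxisomes, was higher with captopril on both of its probe sets and showed no difference between the ages that passed the test. Probe set 1416429_a_at read 1906 and 1936 on the untreated 18 month chips, 2408 and 2755 on the captopril chips and 1987 and 1907 on the 12 month chips. Both captopril chips exceeded the other 4, and the untreated groups overlapped. The rise was 1.34-fold (log2 difference 0.42, SE 0.07, adjusted p = 0.0024), and it passed in all 6 fits that left out a chip. The second probe set, 1416430_at, read 1377 and 1327 on the untreated 18 month chips, 1534 and 1536 on the captopril chips and 1351 and 1269 on the 12 month chips. It rose by 0.18 (1.14-fold, adjusted p = 0.044), without overlap, but passed in only 2 of the 6 fits and had an adjusted p of 0.054 after quantile normalization. In the unpaired t-test of the study's methods, 1416429_a_at did not reach an unadjusted p of 0.05 with captopril. Between the ages Cat 1416429_a_at differed by 0.02, with a 95% interval of -0.14 to 0.18.

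Gpx1, the abundant selenium-containing glutathione peroxidase of the cytosol and mitochondria, was lowest with captopril and highest at 12 months. Its single probe set read 3741 and 3751 on the untreated 18 month chips, 3093 and 2911 on the captopril chips and 4345 and 4431 on the 12 month chips, and no pair of groups overlapped. With captopril it fell by 0.32 (0.801-fold, SE 0.05, adjusted p = 0.0017), and by 0.34 after quantile normalization. At 12 months it was 1.17-fold higher than at 18 months (log2 difference 0.23, SE 0.05, adjusted p = 0.0054, and 0.18 with an adjusted p of 0.013 after quantile normalization).

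Gpx4, which reduces lipid hydroperoxides in membranes and protects cells from ferroptosis, had group means that spanned 0.94 on the log2 scale, the widest span among the 8 genes under the deposited scaling. After quantile normalization it spanned 0.49, less than Cyba (0.68) and Gpx1 (0.52). Probe set 1456193_x_at read 9733 and 10659 on the untreated 18 month chips, 9346 and 8535 on the captopril chips and 16414 and 17828 on the 12 month chips. The 12 month chips stood apart from all others, at 1.68-fold the 18 month level (log2 difference 0.75, SE 0.07, adjusted p = 6.5e-05), which was 0.33 after quantile normalization (adjusted p = 0.00094). The other probe set, 1451695_a_at, read 9214 and 9602 on the untreated 18 month chips, 8462 and 8145 on the captopril chips and 14142 and 15154 on the 12 month chips, and was 1.56-fold higher at 12 months (adjusted p = 3.9e-05). With captopril both were slightly lower, without overlap, by -0.19 (adjusted p = 0.061) and -0.18 (adjusted p = 0.028). The latter call was lost in 4 of the 6 fits that left out a chip, and the former was gained after quantile normalization (adjusted p = 0.036).

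Prdx2, a cytosolic peroxiredoxin rich in neurons and red blood cells, differed least among the 8 genes. Probe set 1418506_a_at read 8841 and 9131 on the untreated 18 month chips, 8285 and 8332 on the captopril chips and 9816 and 10071 on the 12 month chips, in 3 groups that did not overlap. The 12 month level was 1.11-fold higher (log2 difference 0.15, SE 0.04, adjusted p = 0.024), but the direction turned to -0.09 after quantile normalization (adjusted p = 0.068) and the call was lost when any untreated chip was left out. With captopril the difference was -0.11 (95% interval -0.21 to -0.014, adjusted p = 0.078). Probe set 1430979_a_at, with 2564 and 2765 on the untreated 18 month chips, 2794 and 2905 on the captopril chips and 2892 and 2973 on the 12 month chips, passed in neither comparison (0.10, adjusted p = 0.21, and 0.14, adjusted p = 0.068). Of 9 red blood cell markers 1 was tested, Bpgm, and the globin gene Hba-a1 read 2.46 to 31.2 over the chips.

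**Figure D3:**
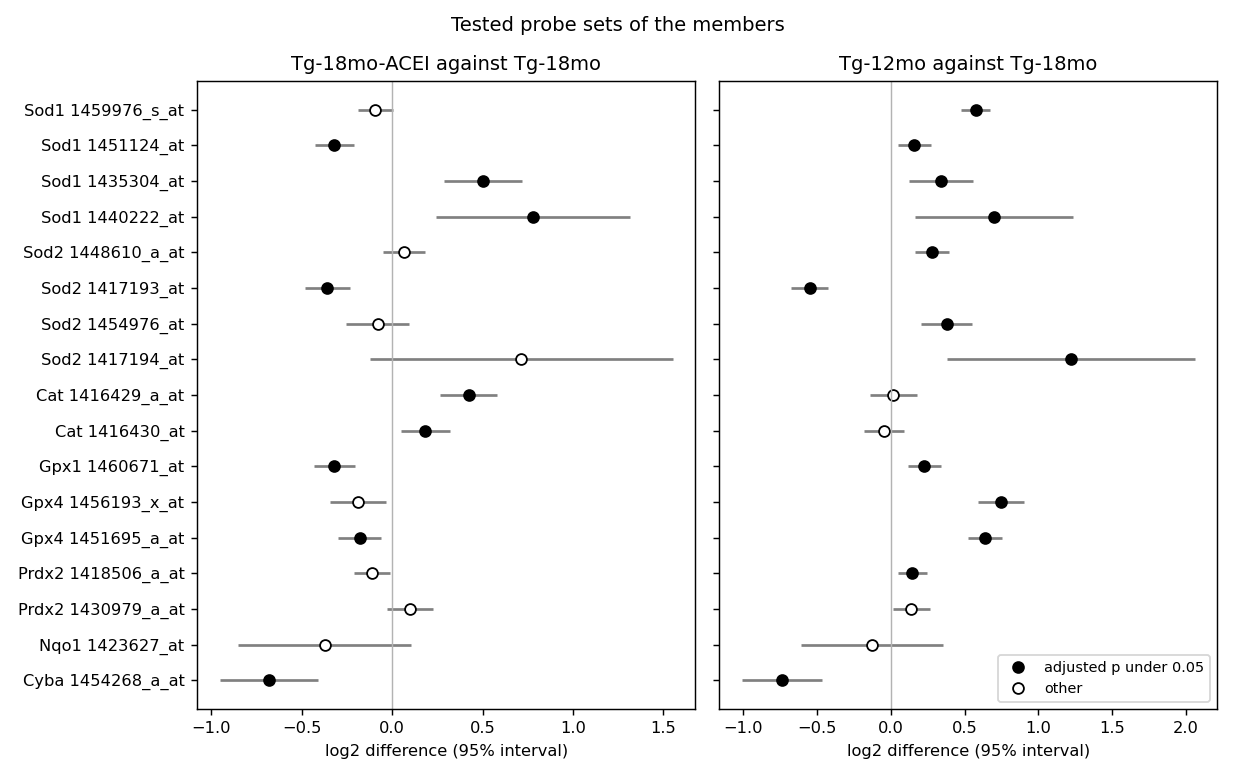
Log2 difference with its 95% interval for the 17 tested probe sets, with captopril (left) and at 12 months (right), each against Tg-18mo; filled points have an adjusted p under 0.05. The Cat probe sets lie above 0 with captopril and near 0 at 12 months, Cyba lies below 0 in both (-0.68 and -0.74), and Gpx1 and both Gpx4 probe sets lie above 0 at 12 months.

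Of the inducible enzymes, neither passed the test. Nqo1, the quinone reductase used as a marker of Nrf2 activity, read 221 and 248 on the untreated 18 month chips, 176 and 186 on the captopril chips and 173 and 266 on the 12 month chips. The captopril chips lay below both untreated 18 month chips, with a log2 difference of -0.37 whose 95% interval was -0.85 to 0.11 (adjusted p = 0.20), and the 12 month chips lay on either side of the 18 month ones. Hmox1, which degrades heme, read 89.4 and 77.7 on the untreated 18 month chips, 86.8 and 76.1 on the captopril chips and 25.8 and 78.2 on the 12 month chips, under the filter in every group. A single 12 month chip was low and all groups overlapped. When it was tested without the filter, the adjusted p was 0.98 with captopril and 0.27 between the ages.

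Cyba, the small membrane subunit that NADPH oxidases need to produce superoxide, was highest in untreated mice of 18 months. It read 668 and 589 on the untreated 18 month chips, 423 and 361 on the captopril chips and 396 and 358 on the 12 month chips. Both Tg-18mo chips lay above the other 4, and the captopril and 12 month chips overlapped. With captopril Cyba fell by 0.68 (0.623-fold, SE 0.12, 95% interval -0.95 to -0.41, adjusted p = 0.0032). At 12 months it was 0.600-fold the 18 month level (log2 difference -0.74, SE 0.12, adjusted p = 0.0012, and -0.63 after quantile normalization). Both calls passed in all 6 fits that left out a chip. These comparisons share the Tg-18mo chips, so the high Tg-18mo level enters both. Captopril-treated mice of 18 months and mice of 12 months differed by 0.05 (95% interval -0.22 to 0.33, adjusted p = 0.75).

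Of the partners of Cyba named here, Cybb was too dim to be tested and the others did not pass with captopril. Cybb, the catalytic subunit of the phagocyte oxidase, read 46.4 and 67.4 on the untreated 18 month chips, 35.0 and 26.5 on the captopril chips and 52.3 and 58.8 on the 12 month chips, under the filter in every group. In the fit without the filter its adjusted p was 0.28 with captopril and 0.99 between the ages. Ncf1, the organizer subunit, differed by 0.18 (adjusted p = 0.35), the GTPase Rac1 by -0.09 (adjusted p = 0.34) and the chaperone Cybc1 by -0.18 (adjusted p = 0.27). Among 9 tested genes of 20 listed for NADPH oxidases and other oxidant-producing enzymes, 1 fell with captopril (11.1%, against 21.7% of all genes) and 0 rose (against 12.6%). The gene that fell was the neuronal nitric oxide synthase Nos1 (-0.25, adjusted p = 0.012). At an unadjusted p under 0.05, 2 were lower and 0 higher by limma, and 1 lower and 0 higher by the methods' t-test. In the same list 2 genes were lower (22.2%, against 28.0% of all genes) and 0 higher (against 21.0%) at 12 months. These were Nos1 (-0.54, adjusted p = 0.00017) and Maob (-0.24, adjusted p = 0.0063), the monoamine oxidase that makes peroxide. Of 12 microglia markers, the cell type in which the phagocyte oxidase is best known, 2 were higher (16.7%) and 5 lower (41.7%) with captopril. Over all genes these shares were 12.6% and 21.7%. At 12 months 2 were higher (16.7%, against 21.0% of all genes) and 7 lower (58.3%, against 28.0%). Their summed signal was 21625 to 22203 in Tg-18mo, 21048 to 21246 in Tg-18mo-ACEI and 20911 to 20982 in Tg-12mo. That sum leans most on Csf1r, with 7833 and 8518, 8609 and 8189, and 8784 and 8760 in the same order of groups. Csf1r passed in neither comparison (adjusted p = 0.60 with captopril and 0.15 at 12 months). Trem2, a receptor of plaque-associated microglia, was lower in both, by -0.52 with captopril (adjusted p = 0.012) and by -1.19 at 12 months (adjusted p = 0.00012). Genes of resting microglia went both ways. Cx3cr1 and P2ry12 rose with captopril by 0.54 and 0.53 (adjusted p = 0.00025 and 0.00067) and were higher at 12 months by 0.46 and 0.27 (adjusted p = 0.00029 and 0.011). Tmem119 fell by 0.27 with captopril (adjusted p = 0.028) and was lower at 12 months by -0.47 (adjusted p = 0.0013). C1qb, a complement subunit, was lower at 12 months by -0.58 (adjusted p = 0.00035). The part of microglia in the Cyba signal was not tested.

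Set against mice of 12 months, the age at which treatment began, captopril-treated mice had 1 of 8 genes higher (Cat, 1.32-fold, adjusted p = 0.0021), where 20.1% of all genes were, and 5 lower, where 20.6% were. The 5 were Sod1 (0.629-fold), Sod2 (0.862-fold), Gpx1 (0.684-fold), Gpx4 (0.522-fold) and Prdx2 (0.836-fold, adjusted p = 0.0019). Among the genes with a mean signal over 4000, 59.9% were lower in this comparison, which uses the same 12 month chips. After quantile normalization Prdx2 differed by 0.03, whereas Sod1 (-0.35), Sod2 (-0.16), Gpx4 (-0.49) and Gpx1 (-0.52) kept their direction and passed. The other Sod2 probe sets disagreed: 1417193_at differed by 0.19 (adjusted p = 0.023), 1454976_at by -0.46 (adjusted p = 0.0018) and 1417194_at by -0.51 (adjusted p = 0.30). Cat 1416430_at was 0.23 higher (adjusted p = 0.015), but had an adjusted p of 0.11 after quantile normalization.

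**Figure D4:**
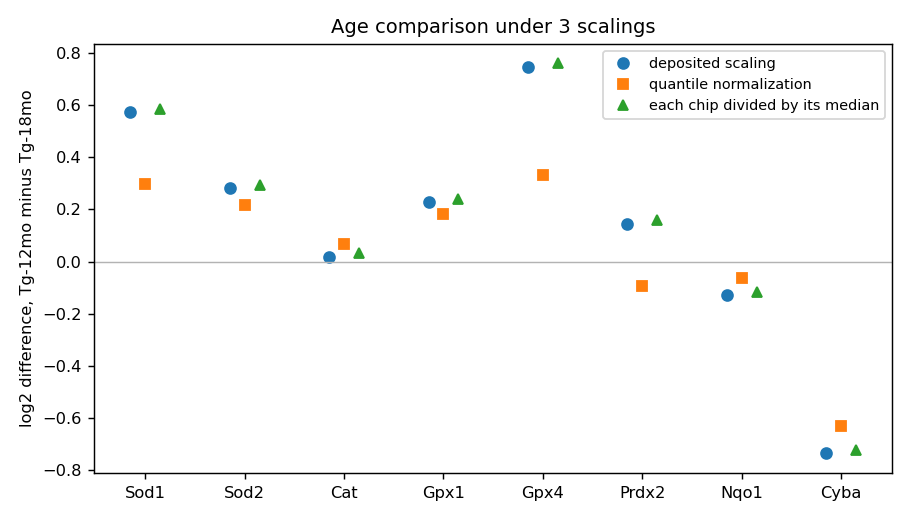
Log2 difference, Tg-12mo minus Tg-18mo, of the brightest tested probe set of 8 genes under the deposited scaling (circles), quantile normalization (squares) and division of each chip by its median (triangles). Quantile normalization moved Sod1 from 0.57 to 0.30, Gpx4 from 0.75 to 0.33 and Prdx2 from 0.15 to -0.09, and left Cyba at -0.63.

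Other enzymes of the same pathways were counted by lists of genes. Among 20 tested of 24 listed superoxide, peroxide and thiol enzymes, 2 rose and 10 fell with captopril, where 12.6% and 21.7% of all genes did, with a median log2 difference of -0.20 against -0.08 over all genes. The strongest falls were Gpx8, a peroxidase of the endoplasmic reticulum (-1.38, adjusted p = 0.00070), Gpx3, a secreted glutathione peroxidase (-0.95, adjusted p = 0.00012), and Sod3, the extracellular superoxide dismutase (-0.62, adjusted p = 0.019). Gpx8 read 358 and 369 on the untreated 18 month chips, 169 and 114 on the captopril chips and 506 and 508 on the 12 month chips. Gpx8 was lowest on the captopril chips, as were the choroid plexus markers without Ttr and the meninges markers. At 12 months 5 of the 20 were higher (25%, against 21.0% of all genes) and 6 lower (30%, against 28.0%). The largest were Sod3 (-0.81), Msrb1, a methionine sulfoxide reductase (-0.64), and Txnrd1, the cytosolic thioredoxin reductase (-0.62).

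Of 18 genes for glutathione synthesis, reduction and transfer, 6 rose (33.3%, against 12.6% of all genes) and 4 fell (22.2%, against 21.7%) with captopril. Gclm, the modifier subunit of glutamate-cysteine ligase, read 1054 and 976 on the untreated 18 month chips, 1707 and 1583 on the captopril chips and 1789 and 1959 on the 12 month chips. Gclm was lowest on both Tg-18mo chips, rising by 0.70 with captopril (adjusted p = 0.00024) and standing 0.88 higher at 12 months (adjusted p = 4.2e-05). Slc7a11, the cystine importer, rose by 1.11 (adjusted p = 0.0091, and 0.017 without the filter, under which its Tg-18mo mean lay) and Mgst3, a microsomal glutathione transferase, by 0.60 (adjusted p = 4.6e-05). At 12 months 7 of the 18 were higher (38.9%, against 21.0%) and 2 lower (11.1%, against 28.0%), Mgst3 by 0.999 and Ggt7, a gamma-glutamyltransferase, by -1.01.

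Of 16 tested genes of the Nrf2 pathway, 2 rose (12.5%, against 12.6% of all genes) and 6 fell (37.5%, against 21.7%) with captopril. At 12 months 1 was higher (6.25%, against 21.0%) and 7 were lower (43.8%, against 28.0%). Nfe2l2, which encodes Nrf2, differed by -0.18 with captopril (adjusted p = 0.14) and by -0.07 at 12 months (adjusted p = 0.49). Its inhibitor Keap1 was lower in both, by -0.37 (adjusted p = 0.0066) and -0.52 (adjusted p = 0.00078). Ephx1, the microsomal epoxide hydrolase, fell by 0.62 with captopril, and the exporter Abcc1 by 0.44. Nfe2l1, a relative of Nrf2 (-0.67), and Mafg, a small Maf protein that pairs with Nrf2 (-0.38), were lower at 12 months. The 2 that rose with captopril were Mafg (0.31, adjusted p = 0.040) and Me1 (0.29, adjusted p = 0.0097). Of 9 genes for heme and iron handling, 0 rose (against 12.6% of all genes) and 3 fell (33.3%, against 21.7%) with captopril. The 3 were the ferroxidase Cp (-0.75), the transferrin receptor Tfrc (-0.23) and the constitutive heme oxygenase Hmox2 (-0.20, adjusted p = 0.017). At an unadjusted p under 0.05, 0 rose by limma and 1 by the methods' t-test. In the same list 3 were higher (33.3%, against 21.0%) and 1 lower (11.1%, against 28.0%) at 12 months. The largest there were Fth1, the ferritin heavy chain (0.79), with 18897 and 21488 in Tg-18mo and 35069.6 and 34764 in Tg-12mo, the iron importer Slc11a2 (-0.70) and the biliverdin reductase Blvrb (0.32).

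**Figure D5:**
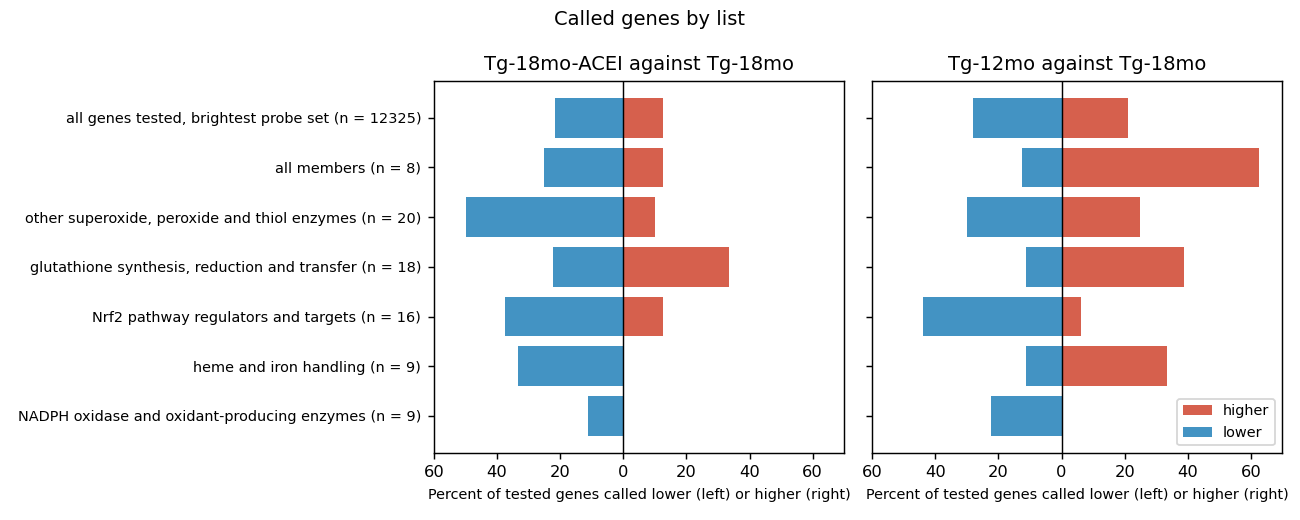
Percent of the tested genes of each list called higher (bars to the right) or lower (bars to the left) at an adjusted p under 0.05, with captopril and at 12 months, each against Tg-18mo; the top bars show all 12325 genes. The 8 enzyme genes lie close to all genes with captopril, and 5 of 8 are higher at 12 months. Among genes with a mean signal over 4000, a class that holds 4 of the 8, 58.4% were called higher at 12 months.

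For the 3 genes with the widest range of group means under the deposited scaling (after quantile normalization Gpx1 takes the place of Sod1), the probe sets of other genes with the most similar signals over the 6 chips were found among 18886, as a description that rests on 3 groups of 2 chips. Gpx4 was most like Uqcc2, an assembly factor of the respiratory chain (Pearson r = 0.9997), Atp5g3, a subunit of ATP synthase, and Mbp, the myelin basic protein. Sod1 was most like Atp6v1c1, a subunit of the proton pump, Gpm6a, a neuronal membrane glycoprotein, and Tuba1a, a tubulin, with r of 0.999 for each. All probe sets named for Gpx4 and Sod1 were bright, at 6352 to 28224, and highest at 12 months, as were bright probe sets as a class. The likeness was found under the deposited scaling only, and whether it holds after quantile normalization was not tested. Cyba was most like Mllt10, Mn1 and Bend3, with r of 0.997, 0.997 and 0.996.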

How the data were processed

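Hippocampal RNA of 3 groups was hybridised to 6 Affymetrix MG430 2.0 chips. The intensity values are the linear signals deposited by the authors, made with GCOS (per the labels) and scaled to a trimmed mean of 600 on every chip, as checked in the values; arrays have no read depth, and the number of chips limits the precision. Detection calls were not used here. After 64 control probe sets were left out, log2 signals were fitted with limma 3.58.1 (R 4.3.3; 3 group means, lmFit, eBayes with an intensity trend, 3 residual and 5.37 prior degrees of freedom), with Benjamini-Hochberg adjustment over 23262 probe sets whose mean was at least 100 in 1 or more groups. Intervals are 95% and unadjusted. Gene symbols came from the platform annotation, promoters from RefSeq. The fit was tested on simulated data. Figures were drawn with matplotlib 3.10.9 in Python 3.11.15.

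Each gene was counted by its brightest tested probe set. Values on all chips were given for that probe set and for others past the test with a 1.5-fold difference, and for further ones where a statement needed them; from the enzyme and microglia lists the 3 largest called differences in the captopril and age comparisons were named, and other marker lists are given as counts. The genes and lists were chosen with earlier results of these data known. Alternatives were 32 added to signals, no filter, a minimum of 200, quantile normalization, division by the median, only 2 groups in the fit, a block for replicate numbers, a prior variance without trend, other summaries over probe sets, leaving out each chip, and the methods' t-test and thresholds (unadjusted p of 0.01, 2-fold). Labels do not say that numbers pair chips, and deviations of same-numbered chips correlated at -0.05 to 0.03.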

Additional observations from a re-analysis of the deposited data

Results flagged for a closer look

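Control probe sets outside the comparisons differed between the groups. The 24 poly-A control probe sets, which report bacterial transcripts spiked into the RNA, averaged 2.27-fold the Tg-18mo level on the Tg-18mo-ACEI chips and 6.45-fold on the Tg-12mo chips. The 18 hybridisation control probe sets, added after the RNA was labelled, were at 2.30-fold on both Tg-12mo chips and at 0.909 to 1.02-fold on the others. Their part in the differences of the enzyme genes was not tested.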

How the results depend on the processing

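The brightest probe sets of Cat, Gpx1 and Cyba with captopril, and of Sod1, Sod2, Gpx1, Gpx4 and Cyba at 12 months, kept direction and call in all 6 fits that left out a chip, with quantile normalization and with the replicate number as a block. Under that block 1 of 8 genes was higher and 2 were lower with captopril. At 12 months 4 were higher and 1 lower (Prdx2 lost, adjusted p = 0.051), and for captopril against 12 months 1 and 5. The numbers do not pair the chips, and shares over all genes are not given for the block. Leaving out a chip moved the Prdx2 difference at 12 months between 0.12 and 0.17. For captopril against 12 months Nqo1 stood at -0.56 without Tg-12mo replicate 1.

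The methods' t-test after Benjamini-Hochberg called 0 higher and 0 lower with captopril, 1 higher (Sod1) and 0 lower at 12 months. For captopril against 12 months it called 0 higher and 1 lower (Sod1). At an unadjusted p under 0.05 it called 0 higher and 3 lower with captopril, against 1448 and 2575 of all 12325 genes. At 12 months these counts were 5 and 1, against 2124 and 2780. At the methods' thresholds it and limma called 0 in each. None of the 8 could pass there, since no brightest probe set spanned 2-fold (0.94 at most on the log2 scale, Gpx4). Over all 12325 genes, that adjusted t-test called 20 and 25, 296 and 386, and 44 and 97 (limma 1547 and 2670, 2594 and 3452, 2482 and 2542); its counts at the methods' thresholds were 76 and 62, 40 and 123, and 56 and 76, and those of limma there 108 and 155, 92 and 263, and 119 and 154. Without the trend 1028 genes rose with captopril, and without single chips 863 to 1694 rose and 1375 to 2930 fell, the fewest without Tg-18mo-ACEI replicate 2 and Tg-18mo replicate 2. The mean of all probe sets called 2 higher with captopril, since Sod1 turned to 0.22 (1440222_at, tested only through its high groups, is in that mean), and put Cat at -0.014 at 12 months. The mean of plain probe sets, which Gpx4, Prdx2 and Cyba lack, called 2 of the remaining genes higher (Sod1 at 0.32, likewise) and 1 lower with captopril. At 12 months it called 3 higher and 0 lower (Cat at -0.046), and for captopril against 12 months 1 lower. Over all genes that summary called 1535 lower in the last comparison, from 2542. Shares over all genes are not given for the summaries over probe sets, so these counts are not set against the whole chip. Quantile normalization turned Sod1 1451124_at to -0.045, Cat 1416430_at to 0.039 and Prdx2 1418506_a_at to -0.092 at 12 months, and for captopril against 12 months Prdx2 to 0.027 and Cyba to -0.054. Signs also turned for uncalled differences when chips were left out one at a time. For captopril against 12 months, Cyba ranged from -0.061 to 0.17, Sod1 1440222_at from -0.073 to 0.23 and Nqo1 from -0.56 to 0.065 (highest without Tg-12mo replicate 2). At 12 months Cat ranged from -0.011 to 0.048 and Nqo1 from -0.44 to 0.18, each turning without 1 of the Tg-12mo chips. The causes were not tested. Hmox1 and other dim probe sets were too near background for a firm statement.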
